A study of Mus musculus with 6 samples.

Results

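The genes described are Foxp3 and 9 genes tied to it, 10 of the 24421 genes in the count table, taken by symbol: the 5 Ikaros family genes Ikzf1, Ikzf2, Ikzf3, Ikzf4 and Ikzf5, the RUNX factor Runx1 with its partner subunit Cbfb, the forkhead factor Foxp1, and the receptor gene Gpr83. They were measured by RNA-seq in CD4+YFP+ Treg cells from female C57BL/6 mice aged 8 to 11 weeks, sorted from spleen. There were 3 control animals with the genotype Foxp3Cre (WT) and 3 with Foxp3Cre miR-142fl/fl (KO), and each gave 1 library. Both groups carry the Cre-YFP allele at the Foxp3 locus, so YFP and Cre were made in cells that transcribe Foxp3, and only the KO animals also carry the floxed miR-142 allele. The sort thus chose cells by YFP made from the Foxp3 locus itself. How far it left out cells that had switched the locus off was not tested.

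Foxp3 is the transcription factor that defines the Treg lineage, and it acts in complexes with other DNA-binding proteins. Ikaros family members are zinc finger factors that pair with each other and recruit corepressors; Helios (Ikzf2) and Eos (Ikzf4) are the members best known for Treg cell identity. Runx1 binds DNA as a heterodimer with CBFβ, and this complex both binds Foxp3 and helps to keep the Foxp3 gene transcribed.

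In the KO cells Gpr83 rose and the pair Runx1 and Cbfb fell, whereas Foxp3 and the 5 Ikaros family genes did not pass the test. All 10 genes had over 1 CPM (a gene's reads scaled to its library's depth) in at least 3 libraries and so were among the 11658 genes tested. This filter used unadjusted library totals, whereas the CPM values given here use TMM-adjusted library sizes. By the quasi-likelihood F (QLF) test of edgeR, at a false discovery rate (FDR) under 0.05, 1 gene was called higher and 2 lower in KO. Of all genes tested, 18.8% were called: 11.6% were higher and 7.27% lower. The 1350 higher and 847 lower genes became 1064 and 1201 when only library size was used for scaling. DESeq2 called 5 of the 10, with 22.3% of its genes called. For 6 of the 10 genes the groups were separate, with every KO value above WT in 4 and below in 2. This was so for 41.0% of all genes tested, with 22.2% above and 18.8% below. The median log2 fold change of the 10 genes was 0.04 and that of all genes tested 0.02. Fold changes are KO over WT, with n = 3 libraries per group throughout, and an exact permutation test on 3 against 3 libraries cannot give a two-sided p below 0.1.

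**Figure D1:**
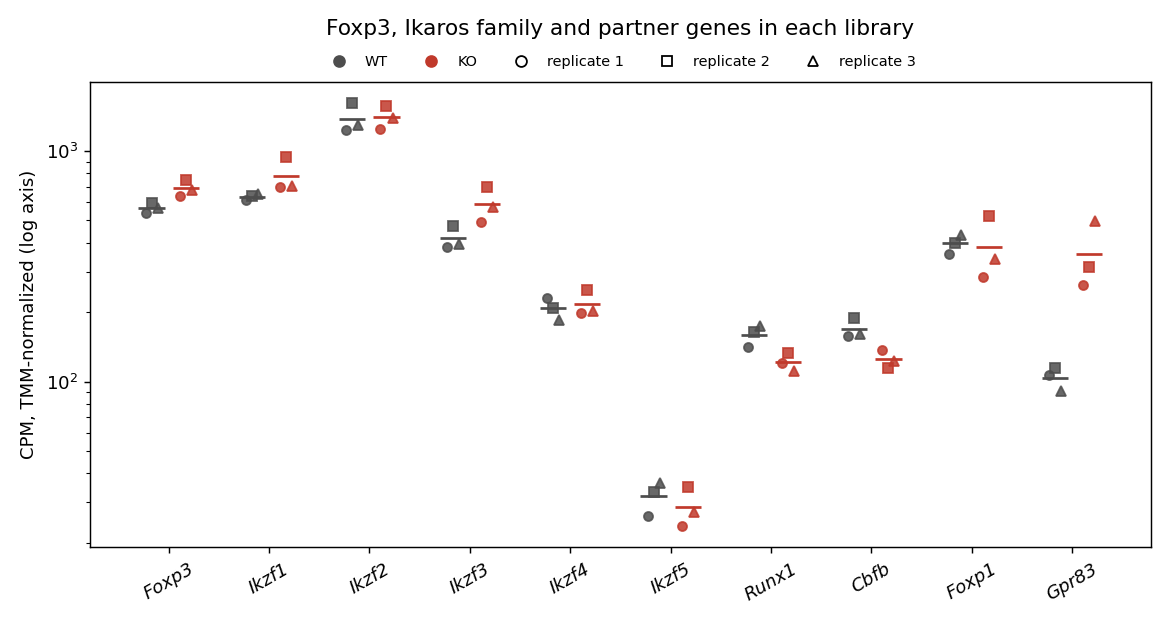
TMM-normalized CPM (log axis) of the 10 genes in each of the 6 libraries, with WT in grey and KO in red, a symbol for each replicate and a bar at each group mean. Gpr83 in KO lies well above WT, Runx1 and Cbfb lie below, and Ikzf2 and Ikzf4 overlap.

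The library totals lay between 13883069 and 24042994 counts, and the floor of 3 counts corresponded to at most 0.227 CPM, far below every value of the 10 genes. Mir142b, the antisense annotation over the deleted hairpin, had 101 to 147 counts in WT and 5 to 7 in KO libraries, and Mir142 itself had 0 counts in all 6. Markers of Treg and T cells (Cd3e, Cd4, Ctla4, Il2ra and Foxp3 summed) lay between 3371 and 4081 CPM in WT and between 5164 and 5944 CPM in KO. Most of that distance was Il2ra (756 CPM in WT and 2578 CPM in KO, group means), while Cd3e (679 and 593 CPM) and Cd4 (1021 and 876 CPM) were lower in each KO library than in any WT library and were not called. The summed markers of other cells were higher in each KO library than in WT and highest in KO replicate 1, but single genes in them went either way. The B cell list summed to 77.2 to 91.7 CPM in WT, 203 and 286 CPM in KO replicates 2 and 3 and 2387 CPM in KO replicate 1, which was the highest library for 9 of its 9 genes. In KO replicates 2 and 3 Cd74 alone gave 194 and 273 CPM of the B cell sum, whereas Cd22 (0.984 and 1.09 CPM, against 15.5 to 19.8 in WT), Cd79a and Cd79b lay below all WT libraries. The monocyte and macrophage list summed to 9.55 to 13.7 CPM in WT and 20.5 to 2856 CPM in KO, with 12 of 12 genes highest in KO replicate 1. The neutrophil list summed to 0.277 to 1.66 CPM in WT and 8.93 to 972 CPM in KO, where KO replicate 1 was highest for 10 of 13 genes. The list for CD8 and NK cells summed to 20.5 to 24.4 CPM and 46.0 to 86.2 CPM (5 of 7 highest there), and the erythroid list to 0.885 to 1.11 CPM and 2.81 to 13.4 CPM (2 of 7, with the 4 globin genes at 0 in all libraries). In KO replicates 2 and 3 Eomes alone gave 42.0 and 29.8 CPM of the CD8 and NK sums of 56.8 and 46.0 CPM. Klrb1c of that list was called lower in KO. Of the neutrophil sums in KO replicates 2 and 3 (8.93 and 53.8 CPM), Mpo gave 6.21 and 32.2 CPM, and S100a9 0 and 1.23 CPM. Of the monocyte and macrophage sums in these libraries (79.0 and 20.5 CPM), Vcam1 gave 35.1 and 11.2 CPM, whereas Cd68 and Itgam lay below all WT libraries. The part of other cells in the results was not tested. In bulk RNA, fewer cells of a type and less RNA per cell cannot be told apart. Of the 10 genes, 8 (all but Runx1 and Cbfb) were at their lowest among the KO libraries in KO replicate 1, which was the lowest KO library for 33.4% of all genes tested. KO replicate 2 was the highest KO library for 8 of the 10 genes (all but Cbfb and Gpr83), against 37.1% of all genes tested.

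The deleted hairpin (GRCm38, chr11:87756864-87756927, plus strand) gives a pair of mature miRNAs, shown because their seeds define the sites searched for in the members. The sequences are from RefSeq (GRCm38.p6), 5′ to 3′, with the seed (bases 2 to 8) in capitals.
mmu-miR-142a-3p: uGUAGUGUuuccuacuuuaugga
mmu-miR-142a-5p: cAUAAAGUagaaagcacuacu

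Seed matches, counting a shifted seed, were found in 5 of the 10 genes, and the share over all genes was computed only for each seed alone. In the longest annotated 3′ UTR of each (GENCODE vM21), the 3p seed was searched as ACACTAC or CACTACA and the 5p seed as ACTTTAT or CTTTATA, on the transcript strand. A 3p site was present in 1 of the 10 genes, Ikzf5, against 12.2% of the 10781 tested genes with an annotated 3′ UTR, and a 5p site in 3 genes, Ikzf2, Runx1 and Foxp1, against 23.6%. A seed of the 3p arm shifted by 1 base (bases 3 to 9, searched as AACACTA or ACACTAA and added after the data were seen) matched only in Gpr83 among the 10, against 15.4%. The 3′ UTRs searched were 1990 to 7554 bases long in the 10 genes, against a median of 1186 bases over the tested genes. The shares were not adjusted for this length. None of the 10 held an 8-base match to any of these seeds. Foxp3, Ikzf1, Ikzf3, Ikzf4 and Cbfb held none of these letters in the 3′ UTR searched. The 5 matches are printed with 8 bases on either side, and the capitals mark the match.
Ikzf2, 5p, chr1:69537833-69537839, minus strand, exon 8: cgatcgtcACTTTATcagcattc
Runx1, 5p, chr16:92605008-92605014, minus strand, exon 8: acatttttCTTTATAatagccaa
Foxp1, 5p, chr6:98928230-98928236, minus strand, exon 18: tcttttatACTTTATctgatgaa
Ikzf5, 3p, chr7:131388781-131388787, minus strand, exon 4: aagtcttgCACTACAgttgtaag
Gpr83, shifted 3p, chr9:14868851-14868857, plus strand, exon 4: ttgaccagACACTAAcagagttg
Set beside the fold changes that follow, the 3 genes with a 5p match comprised 1 called lower and 2 not called, the gene with a 3p match was not called, and the gene with the shifted match was called higher. Of all 2540 tested genes with a 5p match, 353 were called higher and 175 lower. With a 3p match these were 284 and 78 of 1319 genes, and with the shifted match 344 and 86 of 1663. Whether any match bears on a change was not tested.

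Foxp3 (chromosome X, 7573644 to 7595245) was somewhat higher in every KO library, without passing the test. It had 536, 595 and 566 CPM in WT replicates 1, 2 and 3, and 642, 749 and 677 CPM in KO replicates 1, 2 and 3. The lowest KO library thus lay above the highest WT library. The log2 fold change was 0.28 (SE 0.10, 95% CI 0.06 to 0.51), a 1.22-fold difference, with FDR = 0.083 in the QLF test and an exact two-sided permutation p of 0.1. DESeq2 called it (adjusted p = 0.037), and with each library left out the log2 fold change stayed between 0.22 and 0.32 with no call. On the opposite strand, 12.9% of the annotated Foxp3 exon bases overlap Ccdc22 and 5.81% overlap Ppp1r3f, and the counts ignore strand, so reads there cannot be assigned to either gene. Ccdc22 had a log2 fold change of 0.38 (FDR = 0.0752, QLF test) and Ppp1r3f of 0.31 (FDR = 0.14), neither called. Another RNA, Flicr, shares 18.6% of the Foxp3 exon bases on the same strand and is not a row of the table.

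The genes whose profile over the 6 libraries was nearest to that of Foxp3, by the root mean square (RMS) difference of centred log2 CPM among 8739 other genes of at least 10 CPM, were Snrpa1 (0.026), Fxr1 (0.0278) and Uba3 (0.0343). They encode a protein of the U2 spliceosomal particle, an RNA-binding protein and a subunit of the NEDD8-activating enzyme. The genes nearest to Ikzf2 were Sgpp1 (0.0374), Kpna4 (0.0498) and Zfp746 (0.0526). Sgpp1 encodes a sphingosine-1-phosphate phosphatase and Kpna4 an importin.

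Within the Ikaros family, the members best known in Treg cells hardly differed between the groups, and the largest difference was in Aiolos. Helios (Ikzf2, chromosome 1) had the most reads of the 10 genes in every library. It had 1237, 1613 and 1297 CPM in WT and 1252, 1576 and 1387 CPM in KO replicates 1 to 3. The groups overlapped fully, and the log2 fold change was 0.02 (95% CI -0.31 to 0.36, FDR = 0.924, QLF test), so a change of over about 1.28-fold upward lay outside the interval. Scaling by library size alone turned the sign, to -0.05. Eos (Ikzf4, chromosome 10), which binds Foxp3 and brings in the corepressor CtBP1, had 231, 209 and 185 CPM in WT and 198, 249 and 203 CPM in KO. These libraries overlapped as well, with a log2 fold change of 0.06 (95% CI -0.24 to 0.35, FDR = 0.784), which became -0.03 with library size alone.

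Aiolos (Ikzf3, chromosome 11, 10.7 Mb from Mir142), a factor of mature lymphocytes with high levels in B cells, had 382, 475 and 396 CPM in WT and 492, 696 and 573 CPM in KO replicates 1 to 3. All KO values exceeded all WT values. KO replicate 1, where the B cell markers were highest, was the lowest KO library for 8 of the genes described, Ikzf3 among them. Whether RNA of B cells bears on the Ikzf3 values was not tested. The log2 fold change was 0.49 (SE 0.15, 95% CI 0.14 to 0.84), or 1.41-fold, with FDR = 0.0613 in the QLF test. Without KO replicate 1 it was 0.59 and called (FDR = 0.025), and DESeq2 called it on all libraries (adjusted p = 0.018). Ikaros itself (Ikzf1, chromosome 11, 76.0 Mb from Mir142) had 612, 636 and 652 CPM in WT and 696, 946 and 706 CPM in KO. The KO libraries again lay above WT, but KO replicate 2 alone carried most of the distance. The log2 fold change of Ikzf1 was 0.31 (95% CI -0.01 to 0.62, FDR = 0.157, QLF test), and without KO replicate 2 it was 0.15. Pegasus (Ikzf5, chromosome 7), the least studied member, had 26.2, 33.0 and 36.2 CPM in WT and 23.6, 34.8 and 27.3 CPM in KO, overlapping groups that differed by -0.16 on the log2 scale (95% CI -0.58 to 0.27, FDR = 0.584). Its value is uncertain, since 81.3% of its annotated exon bases overlap Pstk on the opposite strand, and Pstk was called lower (log2 fold change -0.65, FDR = 0.0233).

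**Figure D2:**
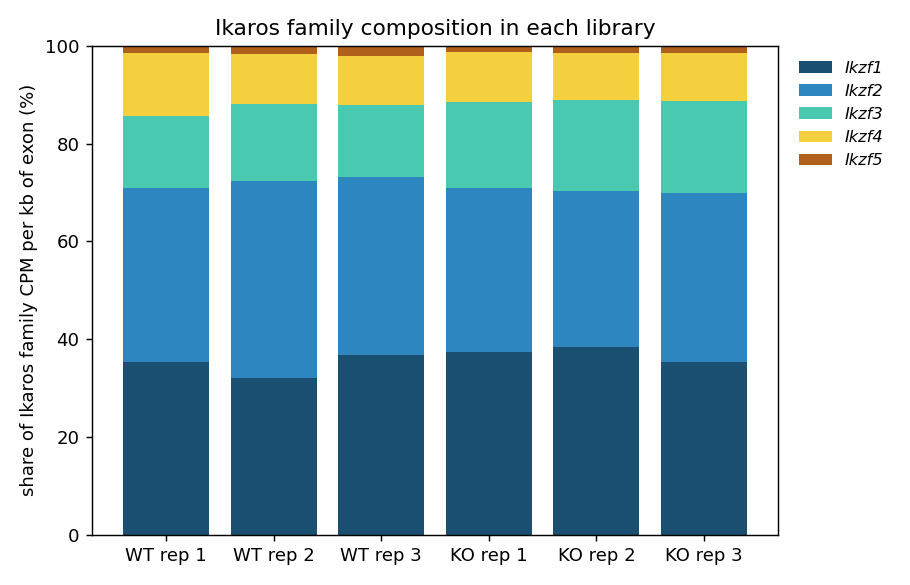
Share of the family's CPM per kilobase of exon (%, each bar sums to 100) taken by each Ikaros gene in each library. The Ikzf3 band is wider in all 3 KO libraries, 17.5 to 18.9% against 14.6 to 15.8% in WT.

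Per kilobase of annotated exon, Ikzf2 took 37.5 ± 2.58% (SD, n = 3) of the family in WT and 33.3 ± 1.38% in KO, and Ikzf1 took 34.7 ± 2.46% and 37.1 ± 1.56%. Ikzf3 took 15.0 ± 0.637% in WT and 18.3 ± 0.767% in KO, whereas Ikzf4 took 11.0 ± 1.60% and 9.93 ± 0.301%. The size of each share rests on the length used, since Ikzf3 has 8754 annotated exon bases but 4607 in its longest transcript. Shares by longest transcript were not computed. Ratios within a library do not depend on how libraries are scaled. The log2 ratio of Ikzf3 to Ikzf2 counts was -1.72 ± 0.04 in WT and -1.27 ± 0.08 in KO, a 1.37-fold shift with no overlap between the groups. For Ikzf1 to Ikzf2 the shift was 1.20-fold, also without overlap, and the exact two-sided permutation p was 0.1 for each of these ratios, the smallest possible, and 0.3 after adjustment over the 6 ratios computed. Without WT replicate 2 the difference of the log2 ratio of Ikzf1 to Ikzf2 fell from 0.26 to 0.15 (exact permutation p = 0.2), and without KO replicate 2 it was 0.21 (p = 0.4). Ikzf4 to Ikzf2 (p = 0.9, exact permutation test) and Ikzf5 to Ikzf2 (p = 0.4) overlapped between the groups.

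Both subunits of the RUNX complex fell in KO Treg cells. Runx1 (chromosome 16), the DNA-binding subunit, had 142, 163 and 174 CPM in WT and 121, 133 and 112 CPM in KO replicates 1 to 3. Cbfb (chromosome 8), the shared subunit that stabilizes RUNX proteins on DNA, had 158, 189 and 160 CPM in WT and 137, 115 and 123 CPM in KO. For either gene the highest KO library lay below the lowest WT library. The log2 fold change was -0.39 for Runx1 (SE 0.11, 95% CI -0.65 to -0.14, FDR = 0.0457, QLF test) and -0.43 for Cbfb (SE 0.11, 95% CI -0.69 to -0.18, FDR = 0.0333). KO levels were thus 0.763 and 0.741 of WT. The log2 ratio of Runx1 to Cbfb counts was -0.08 ± 0.17 in WT and -0.04 ± 0.22 in KO (SD, n = 3), overlapping groups (exact permutation p = 0.6). Both calls sit close to the threshold. The Runx1 call was lost without WT replicate 2 or 3 or KO replicate 1 or 3 (FDR between 0.0626 and 0.16), and the Cbfb call without any library other than KO replicate 1 (FDR between 0.0586 and 0.129), while the log2 fold changes stayed between -0.49 and -0.33 and between -0.52 and -0.35.

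The other RUNX genes went the opposite way. Runx3, a factor of effector and cytotoxic T cells, had 74.4, 68.2 and 88.7 CPM in WT and 184, 148 and 151 CPM in KO. It rose 1.06 on the log2 scale (SE 0.13, FDR = 0.00324, QLF test) and was called with each library left out. Runx2, better known from bone, had 37.8, 45.1 and 47.2 CPM in WT and 119, 81.9 and 66.6 CPM in KO. Its change was 1.04 on the log2 scale (SE 0.21, FDR = 0.0168). KO replicate 1, with the most transcripts of other cells, was the highest library for both, and without it Runx2 had a log2 fold change of 0.76 and was still called. The Runx2 call was lost when any WT replicate was left out (FDR up to 0.0709). The log2 ratio of Runx3 to Runx1 counts lay between -1.26 and -0.93 in WT and between 0.16 and 0.61 in KO libraries, so reads of Runx3 outnumbered those of Runx1 in all 3 KO libraries and in no WT library. This ratio was chosen after the values were seen and was not tested. It was not adjusted for gene length, so the order of read numbers does not rank the genes by level.

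**Figure D3:**
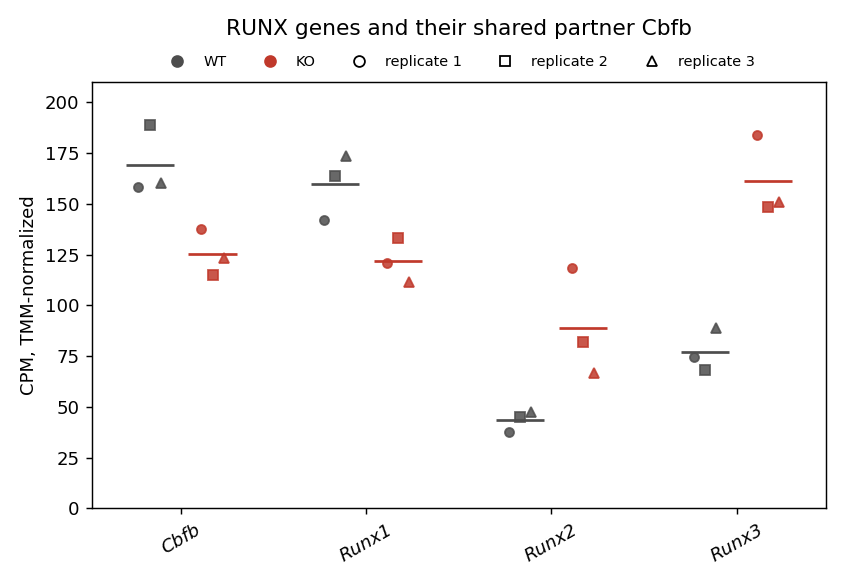
TMM-normalized CPM of Cbfb, Runx1, Runx2 and Runx3 in each library (WT grey, KO red, a symbol per replicate, bars at group means). Cbfb and Runx1 lie lower in all KO libraries and Runx2 and Runx3 higher, with Runx2 at its highest, 119 CPM, in KO replicate 1.

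Foxp1 (chromosome 6), a relative of Foxp3 that T cells use to stay quiescent and that supports Foxp3 binding to chromatin, varied widely among the KO libraries. It had 358, 401 and 434 CPM in WT and 284, 521 and 342 CPM in KO replicates 1 to 3. KO replicate 2 lay above all WT libraries and the other KO libraries below them. The log2 fold change was -0.06 (95% CI -0.56 to 0.45, FDR = 0.873, QLF test), and it was -0.34 without KO replicate 2 (FDR = 0.0992) and 0.10 without KO replicate 1 (FDR = 0.739). The log2 ratio of Foxp3 to Foxp1 counts was 0.51 ± 0.11 in WT and 0.90 ± 0.34 in KO, with overlapping groups (exact permutation p = 0.3). Of the other FOXP genes, Foxp4 was tested and not called, and Foxp2 did not pass the CPM filter.

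Gpr83 (chromosome 9, 14860210 to 14870789), a G protein-coupled receptor gene that Treg cells express above other T cells, showed the largest difference of the 10 genes. It had 107, 114 and 91.2 CPM in WT and 262, 314 and 499 CPM in KO replicates 1 to 3. The lowest KO library was over 2-fold above the highest WT library, and KO replicate 3 stood above the other KO libraries. The fold change was 3.44 (95% CI 2.34 to 5.06), or 1.78 on the log2 scale (SE 0.24, FDR = 0.00412, QLF test). It was called with each library left out, with log2 fold changes between 1.45, without KO replicate 3, and 1.95, without KO replicate 1.

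**Figure D4:**
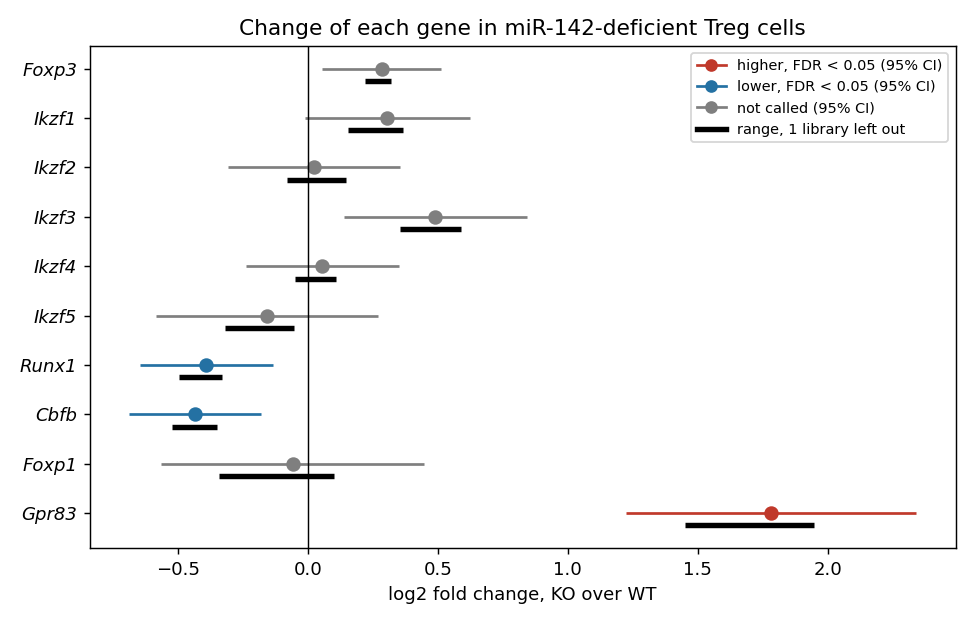
Log2 fold change, KO over WT, of the 10 genes with its 95% confidence interval, coloured by the call at FDR under 0.05, and in black the range of the fold change when each library was left out in turn. Gpr83 at 1.78 stands apart, and Cbfb and Runx1 lie at -0.43 and -0.39.

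Per kilobase of exon, the WT levels (CPM per kilobase, SD, n = 3) put Foxp3 (124 ± 6.44), Ikzf2 (119 ± 17.4) and Ikzf1 (110 ± 3.43) at the top, and libraries of neighbours in this order overlapped. Cbfb (48.6 ± 4.90) and Ikzf3 (47.7 ± 5.69) followed with overlapping libraries, then Ikzf4 (34.7 ± 3.85) and Foxp1 (28.9 ± 2.76), which also overlapped. Gpr83 (20.4 ± 2.32), Runx1 (13.3 ± 1.34) and Ikzf5 (5.56 ± 0.894) stood apart from one another. In KO the order changed most for Gpr83, from position 8 to 4 at 70.3 ± 24.4, and for Cbfb, from position 4 to 7 at 36.0 ± 3.30. With the longest transcript in place of all exons, Ikzf2 (149) stood above Foxp3 (148) in WT, Ikzf3 (90.7) above Cbfb (58.5), Foxp1 (55.4) above Ikzf4 (40.4) and Runx1 (27.2) above Gpr83 (24.4), so the order of these pairs rests on the length used.

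Of 21 genes for other Foxp3-binding proteins, 1 was called higher, 1 lower and 19 not called, against 11.6% higher and 7.27% lower among all genes tested. The median log2 fold change was -0.09 and the range from -1.51 to 0.36. At an unadjusted p under 0.05, 1 was higher and 3 lower, and DESeq2 called 1 higher and 3 lower. The share of all genes at that unadjusted threshold was not computed, here or for the lists below. DESeq2 called 22.3% of its genes. Nfatc1, a calcium-dependent factor of T cell receptor signalling, fell from 511 ± 13.2 to 325 ± 54.2 CPM (log2 fold change -0.65, FDR = 0.0146, QLF test). Stat3, which relays cytokine signals, rose from 396 ± 14.7 to 509 ± 22.1 CPM (0.36, FDR = 0.0252). The Nfatc1 call was lost without WT replicate 2 or 3, and the Stat3 call without any library other than KO replicate 2 (FDR up to 0.0615 and 0.115). With library size alone, Stat3 was not called and the list gave 2 lower, Nfatc1 and Hdac7.

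Of 17 regulators of Foxp3 transcription, 1 was called higher and none lower by the QLF test, with a median of -0.22. Among all genes tested, 11.6% were called higher and 7.27% lower. At an unadjusted p under 0.05, 2 were higher and 2 lower, and DESeq2 called 2 higher and 1 lower. Without KO replicate 2, 3 were called lower (Foxo1, Stat5b and Tet3) beside 1 higher. Satb1, a chromatin organizer, rose from 412 ± 59.3 to 690 ± 156 CPM (0.74, FDR = 0.0303), and its call was lost without any WT replicate (FDR up to 0.109). Of 15 subunits of the corepressor complexes that Ikaros proteins recruit, 1 was called lower and none higher, with a median of -0.03. The shares over all genes tested were the same 7.27% lower and 11.6% higher. At an unadjusted p under 0.05, 2 were higher and 2 lower, and DESeq2 called 1 higher and 2 lower. Hdac2, a histone deacetylase, fell from 76.8 ± 1.59 to 59.7 ± 4.72 CPM (-0.36, FDR = 0.03), a call lost without any WT replicate or without KO replicate 1 (FDR up to 0.121).

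Of 14 genes that Foxp3 is known to activate, 8 were called higher, 1 lower and 5 not called, with a median of 0.54, where 11.6% of all genes tested were higher and 7.27% lower. There were 7 higher without KO replicate 1 or with library size alone, and 5 higher without WT replicate 2. Socs2, a brake on cytokine signalling, rose from 38.9 ± 3.54 to 225 ± 39.4 CPM (log2 fold change 2.53, FDR = 0.000393, QLF test). Itgae, the integrin subunit CD103, rose from 121 ± 16.3 to 544 ± 60.0 CPM (2.18, FDR = 0.000508), and Capg, an actin-capping protein, from 191 ± 18.3 to 378 ± 67.7 CPM (0.98, FDR = 0.00623). Il2ra had a log2 fold change of 1.77 and Nrp1, the gene that fell, of -0.66. Of 8 genes that Foxp3 is known to repress, 7 were tested, 3 were called higher and none lower by the QLF test, against the same 11.6% and 7.27%, with a median of 0.70, and Il2 did not pass the filter. At an unadjusted p under 0.05, 4 were higher and 1 lower, and DESeq2 called 4 higher and 1 lower. Il4, a type 2 cytokine, rose from 1.90 ± 0.0970 to 4.96 ± 0.917 CPM (1.39, FDR = 0.00833), and Pde3b, which breaks down cAMP, had a log2 fold change of 1.63. From a reporter assay, the study describes Pde3b as a direct target of the deleted miRNA. Whether the rise of Pde3b bears on repression by Foxp3 was not tested. The repressed list includes Satb1 as its other call, and without KO replicate 1 it had 4 genes called higher. The repressed genes not called were Il7r (0.70), Ptpn22 (-0.04), Ifng (-0.78) and Tcf7 (-0.84). Both lists thus held genes that rose, while Foxp3 itself was not called. Since the lists were chosen with earlier results of these data known, their counts are not a test of Foxp3 activity. By flow cytometry the study found more CD25 (Il2ra), CD103 and GITR (Tnfrsf18) on KO Treg cells, and it treats these as T cell activation markers. It found PD-1 lower, and CTLA-4 and ICOS not affected. Ctla4 (0.32, FDR = 0.642, QLF test) and Icos (-0.20, FDR = 0.291) of the activated list were not called. The study also warns that inflammation in the KO mice could alter Treg gene expression, which was not tested here.

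**Figure D5:**
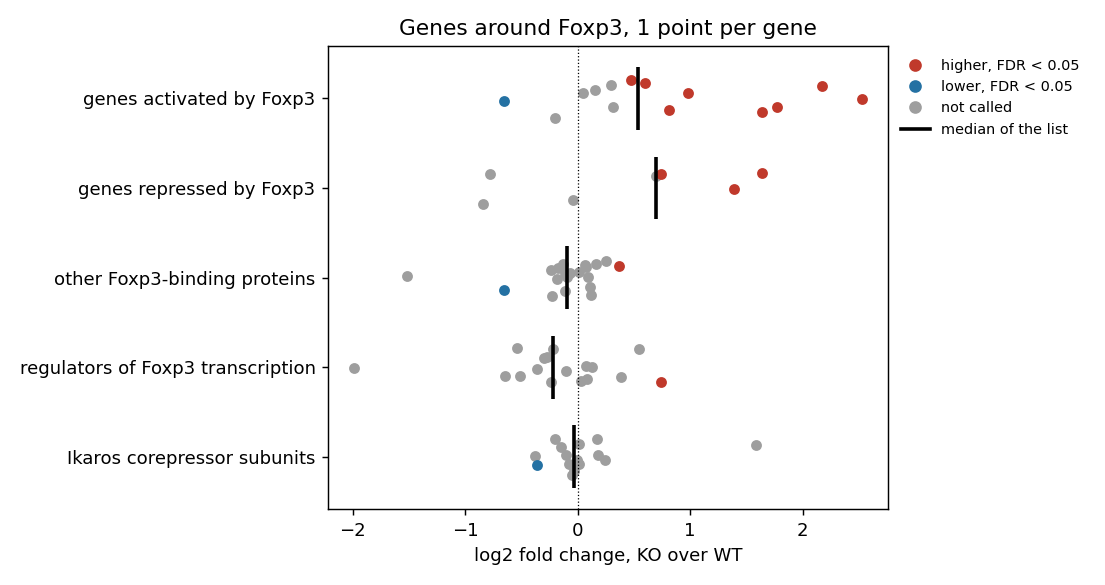
Log2 fold change, KO over WT, of each tested gene in 5 lists around Foxp3 (1 point per gene; red called higher, blue called lower, grey not called; black line at the list's median). The medians of the activated and repressed lists are 0.54 and 0.70, and those of the other 3 lists lie between -0.22 and -0.03.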

How the data were processed

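The authors aligned single-end reads to mm10 with HISAT, counted them per gene with featureCounts ignoring strand and deposited the raw counts, 1 column per library; the annotation is not given in the sources used here. Libraries were grouped by their labels, and the study's methods give 3 mice per group. The test, edgeR 4.0.16 (R 4.3.3) with the QLF method after TMM normalization, took genes with CPM above 1 in 3 or more libraries and Benjamini-Hochberg adjustment over all of them. The SE is the log2 fold change divided by the square root of F. CPM values use TMM library sizes, except in the filter, which used library totals. Permutation tests used log2(count ratios), with 0.5 added to each count, or log2(CPM + 0.5). DESeq2 1.42.0 was an alternative. Exons, overlaps and 3′ UTRs came from GENCODE vM21 (GRCm38, the build mm10 names), which has 23376 of the 24421 symbols, including all 10 members, and miRNAs from RefSeq. The fit was tested on simulated counts. Named genes were the 10 members, up to 4 genes per list and direction with the smallest p among those called, the 3 nearest profiles, and overlapping genes. The members and lists were chosen with earlier results of these data known. Alternatives covered scaling, filter, test, threshold, block, transcript length, pseudocount and each library left out. Confidence intervals are those of the fitted fold changes and include the spread between libraries.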

Additional observations from a re-analysis of the deposited data

How the results depend on the processing

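Gpr83 was called in all 14 other fits and at FDR under 0.01, and the direction of Foxp3, Ikzf1, Ikzf3, Ikzf5, Runx1, Cbfb and Gpr83 held in every fit. With 1 library left out at a time, calls over all genes ranged from 691 to 2340 (483 to 1403 higher and 208 to 937 lower), lowest without WT replicate 2, and calls among the 10 genes from 1 to 3. An FDR under 0.01 left 686 genes (490 higher and 196 lower) and 1 of the 10. DESeq2 called 5 of the 10, Foxp3 and Ikzf3 in addition, with 22.3% of its genes called. With library size as the only scaling, 1064 genes were higher and 1201 lower in place of 1350 and 847, which moved the median of all genes to -0.06 and turned Ikzf2 to -0.0544 and Ikzf4 to -0.0256. The Runx1 call was also lost without the CPM filter (FDR = 0.0541). Leaving out 1 library moved the log2 fold change of Ikzf2 from -0.0781 to 0.1466, of Ikzf4 from -0.0481 to 0.1086 and of Foxp1 from -0.3406 to 0.1001, and the log2 ratio of Ikzf4 to Ikzf2 from -0.0821 to 0.1798 and of Runx1 to Cbfb from -0.0829 to 0.1429. The cause of these shifts was not tested, beyond the smaller number of libraries in each fit.

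Replicate numbers are shared between the groups. Same-numbered libraries showed no common deviation (r of deviations from the group means 0.080, -0.006 and -0.195), and differently numbered ones had r from -0.183 to 0.207. With 3 libraries per group, these values cannot tell whether the numbers pair the mice. A replicate block gave 1061 higher and 545 lower genes, with Gpr83 and Ikzf3 (FDR = 0.0338) called among the 10, and Runx1 (FDR = 0.0724) and Cbfb (FDR = 0.0675) not called.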
